A study of Mus musculus with 12 samples.

Results

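The genes described here are 10 components of the death receptor and necroptosis pathways, namely Fas, Fasl, Tnfrsf10b, Tnfsf10, Fadd, Casp8, Cflar, Ripk3, Mlkl and Zbp1. They were chosen by name from 38924 genes with counts, with earlier results of these data known, and no measured value was a criterion. All 10 were measured in every library. Spleens of C57BL/6 wild-type (WT) and STINGgt/gt (goldenticket) mice, 8 to 12 weeks of age, were the source of sorted naive CD4+ T cells, which were expanded with antibodies against CD3 and CD28 for 2 days and rested for 1 day. All 4 groups therefore consist of T cells that had been activated in culture. The cells were then cultured for 16 h with the solvent DMSO or with the acridanone CMA (10-carboxymethyl-9-acridanone), a small molecule that activates mouse STING. This gave WT DMSO, WT CMA, STINGgt/gt DMSO and STINGgt/gt CMA, with 3 RNA sequencing libraries each. The STINGgt allele is a germline missense mutation, so it is present in every cell of the animal and not in T cells alone, and the labels call these samples STING KO.

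Death receptors such as Fas and the TRAIL receptor are surface proteins that recruit the adaptor FADD and caspase-8 when their ligands bind. Activated caspase-8 cleaves effector caspases and starts apoptosis, and its inactive homologue cFLIP, the product of Cflar, limits this step. Where caspase-8 is held back, the kinase RIPK3 can phosphorylate MLKL, which permeabilises the plasma membrane in necroptosis. ZBP1 is a sensor of Z-form nucleic acids that can engage RIPK3. In activated T cells Fas and its ligand are known for the removal of expanded clones, and caspase-8 and cFLIP for keeping such cells alive.

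The start regions of 4 genes on which the results turn are printed first, from 250 bases before to 50 bases after the annotated start, because they were raised (Fas, Cflar, Mlkl) or lowered (Ripk3) by CMA in WT T cells. The sequences are those of RefSeq for GRCm38.p6, 5′ to 3′ on the strand of the gene, and capitals mark a motif match. For Cflar and Mlkl the RefSeq start differs from the start in the gene coordinates given below.
Fas (chr19:34290409-34290708, plus strand): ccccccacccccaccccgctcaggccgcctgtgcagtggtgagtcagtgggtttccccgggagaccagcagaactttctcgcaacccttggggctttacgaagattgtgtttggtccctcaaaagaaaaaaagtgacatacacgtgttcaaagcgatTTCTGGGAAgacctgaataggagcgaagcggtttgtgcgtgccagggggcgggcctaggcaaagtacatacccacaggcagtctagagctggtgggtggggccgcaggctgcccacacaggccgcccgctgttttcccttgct
Cflar (chr1:58711241-58711540, plus strand): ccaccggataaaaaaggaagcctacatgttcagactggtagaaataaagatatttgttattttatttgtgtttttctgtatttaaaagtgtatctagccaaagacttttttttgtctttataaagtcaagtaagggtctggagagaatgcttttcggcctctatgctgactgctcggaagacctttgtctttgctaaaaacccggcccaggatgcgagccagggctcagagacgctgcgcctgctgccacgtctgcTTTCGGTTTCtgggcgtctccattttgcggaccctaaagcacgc
Ripk3 (chr14:55788808-55789107, minus strand): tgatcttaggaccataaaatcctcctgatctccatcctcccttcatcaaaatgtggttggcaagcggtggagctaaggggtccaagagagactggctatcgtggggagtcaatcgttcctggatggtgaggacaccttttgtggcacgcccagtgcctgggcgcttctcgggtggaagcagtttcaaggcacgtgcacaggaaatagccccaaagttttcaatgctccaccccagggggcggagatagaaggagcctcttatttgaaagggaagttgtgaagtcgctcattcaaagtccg
Mlkl (chr8:111338156-111338455, minus strand): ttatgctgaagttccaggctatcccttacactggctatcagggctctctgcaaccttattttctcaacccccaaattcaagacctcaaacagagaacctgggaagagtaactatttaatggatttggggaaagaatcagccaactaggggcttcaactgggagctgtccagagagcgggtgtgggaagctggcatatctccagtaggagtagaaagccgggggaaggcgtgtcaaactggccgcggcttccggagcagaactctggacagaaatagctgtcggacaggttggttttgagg
Of the 10 genes, 8 had such a sequence, the exceptions being Tnfrsf10b and Zbp1. The interferon-stimulated response element core (TTTCNNTTTC) was found in 1 of these 8, and in 3.44% of 32851 promoters of the same length. The match, TTTCGGTTTC, begins at position 7 counted from the RefSeq start of Cflar, which is upstream of the gene start given below. The gamma-activated sequence (TTCNNNGAA) was found in 1 of 8, as TTCTGGGAA beginning 93 bases before the start of Fas (position -93), and in 8.30% of all promoters. The consensus NF-kB site was found in none of the 8 and in 4.51% of all promoters. The p53 decamer was found in 1 of 8, beginning at position -115 of Fasl, and in 8.36% of all promoters. Both strands were searched, and no match of these motifs overlapped another. A match describes the letters and does not show that a factor bound there.

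The libraries held between 27414450 and 43784910 reads on genes. As shares of all reads tallied for a library, on genes or not, reads assigned to no gene were 4.86% to 5.47% in WT DMSO, 6.79% to 7.16% in WT CMA, 5.98% to 6.54% in STINGgt/gt DMSO and 6.02% to 6.33% in STINGgt/gt CMA, so that WT CMA was the highest and WT DMSO the lowest. Reads without a unique position were 29.6% to 30.3%, 27.8% to 27.9%, 28.1% to 29.0% and 28.1% to 28.3% in the same order. Replicates of a group differed by more than counting noise in all 12 pairs, and WT DMSO replicates 2 and 3 lay farthest apart (chi-square per degree of freedom 30, against 2.64 to 10.2 for the other pairs). RNA of Tmem173, which encodes STING, was present in both genotypes with DMSO (183 to 190 CPM in WT, 168 to 181 CPM in STINGgt/gt), and a missense mutation need not lower it, so it checks no label. With CMA the level of Tmem173 was 296 to 316 CPM in WT and 169 to 184 CPM in STINGgt/gt. Levels are given as CPM, the usual depth-scaled read count, with library sizes adjusted by the trimmed mean of M-values (TMM). The 8 T-cell markers were present in all libraries. Their sums were 3078 to 3149 CPM in WT DMSO and 2842 to 2853 CPM in WT CMA. In STINGgt/gt they were 3164 to 3212 CPM with DMSO and 3199 to 3266 CPM with CMA. Cd3e had a mean of 252.5 CPM in WT DMSO and 160.3 CPM in WT CMA. Cd4, at 435.5 and 498.4 CPM in the same groups, was the single one of the 8 with a higher mean in WT CMA. Markers of other cells were also present and moved with the groups. The sum of 6 B-cell markers was 253 to 266 CPM in WT DMSO, 350 to 378 CPM in WT CMA, 115 to 122 CPM in STINGgt/gt DMSO and 114 to 115 CPM in STINGgt/gt CMA. The sum of 7 myeloid markers was 8.41 to 9.48, 3.49 to 4.19, 2.27 to 2.57 and 1.72 to 2.65 CPM in the same order, with Fcgr1 at 0 in every library of each group except WT CMA. For 6 markers of CD8 and natural killer cells the sums were 75.3 to 79.5, 68.2 to 72.8, 54.2 to 62.2 and 58.4 to 65.3 CPM. The part of these cells, and of the shares of unassigned reads, in the differences below was not tested. In bulk samples, fewer cells that express a gene and less RNA per cell cannot be told apart. The study calls the libraries of a group biological replicates. The labels do not say whether they came from separate animals or cultures, and p-values measure the spread between these libraries.

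To determine how STING activation altered the pathway, CMA was compared with DMSO within each genotype, and the effects in both genotypes were then compared. In WT T cells 6 of the 10 genes rose (Fas, Tnfrsf10b, Fadd, Cflar, Mlkl and Zbp1), 2 fell (Casp8 and Ripk3) and 2, the ligand genes Fasl and Tnfsf10, did not pass the threshold (edgeR quasi-likelihood test, Benjamini-Hochberg adjusted p of 0.05). Of all 13811 genes tested, 70.4% passed in this comparison, 33% higher and 37.4% lower, so that 8 of 10 was near the share of all genes, and the larger part of these 8 lay on the higher side. The 3 WT CMA and 3 WT DMSO libraries did not overlap for 8 of the 10 genes, against 71.1% of all genes. The median log2 fold change of the 10 genes was 0.46, against -0.04 for all genes. In STINGgt/gt T cells none of the 10 passed, against 1.32% of all genes (0.398% higher and 0.92% lower), and 1 gene (Mlkl) had an unadjusted p below 0.05. DESeq2 and limma-voom also called none of the 10 there, and the libraries of 3 genes did not overlap, against 23.1% of all genes. A difference of the CMA effect between genotypes was called for 7 of the 10, 6 more positive and 1 more negative in WT, against 58.8% of all genes (27.2% and 31.6%).

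**Figure D1:**
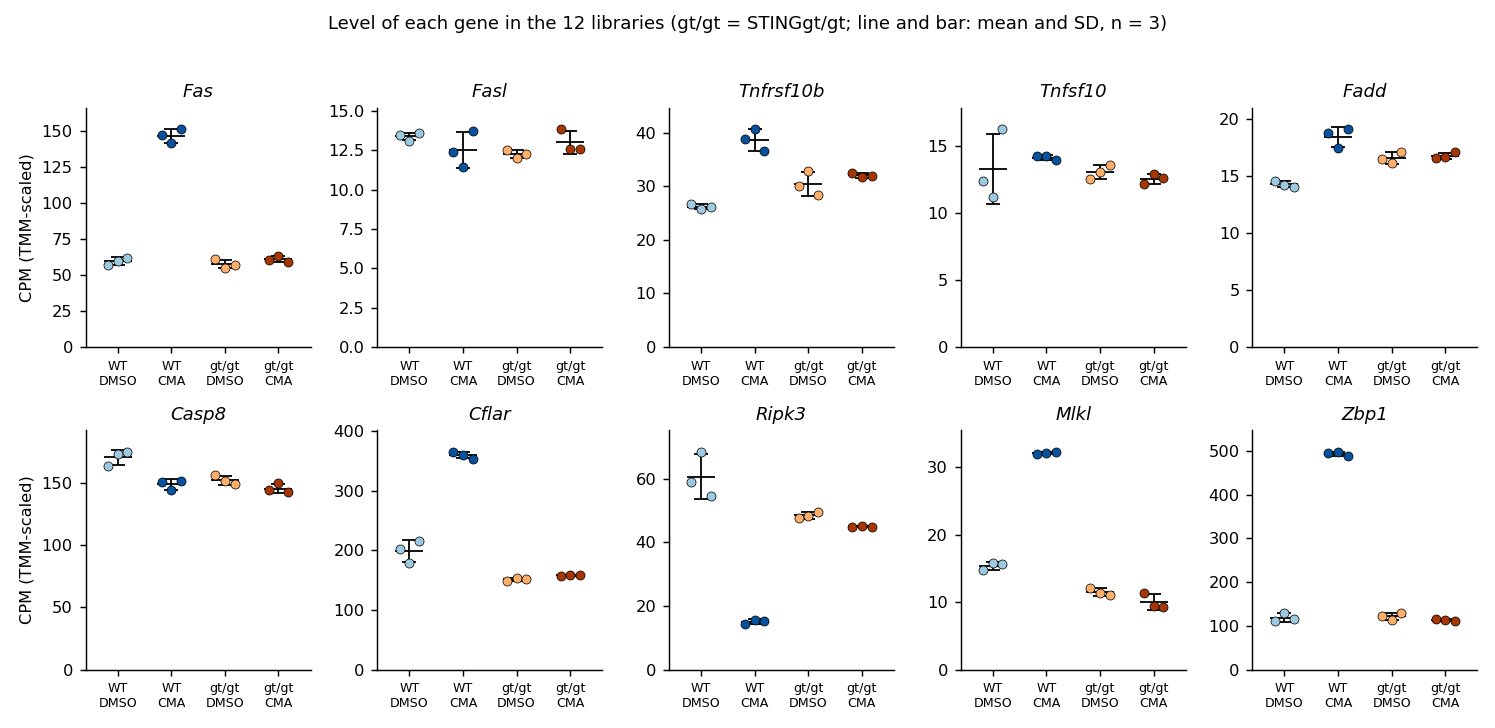
Each panel plots the level of 1 gene in CPM (linear axis from 0, TMM-scaled) in the 12 libraries. Points are libraries, and lines and bars are the mean and SD of 3 libraries. The WT CMA libraries of Fas, Cflar, Mlkl and Zbp1 lie above all other libraries and those of Ripk3 below all others, whereas for Fasl the WT CMA libraries overlap those of WT DMSO.

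Among the receptors, Fas (ENSMUSG00000024778, GRCm38 chr19:34290659-34327770, plus strand), which encodes the receptor of Fas ligand, showed the larger change. Its levels in WT T cells were 56.6, 59.8 and 61.9 CPM with DMSO and 146.8, 141.6 and 151.0 CPM with CMA. The STINGgt/gt libraries held 60.9, 55.1 and 56.9 CPM with DMSO and 60.4, 63.1 and 58.9 CPM with CMA. The WT CMA libraries thus lay apart from the other 9, which shared a single range. The rise in WT was 2.46-fold (log2 fold change 1.30, SE 0.050, adjusted p = 9.28e-13, edgeR). In STINGgt/gt T cells the log2 fold change was 0.08 (95% interval -0.03 to 0.18, adjusted p = 0.571, edgeR), and the difference of the effects was 1.22 (adjusted p = 4.14e-10, edgeR).

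Tnfrsf10b (ENSMUSG00000022074, chr14:69767472-69784403, plus strand) encodes the mouse TRAIL receptor that signals death. It was at 26.8, 25.8 and 26.0 CPM in WT DMSO and 38.8, 40.6 and 36.5 CPM in WT CMA. The STINGgt/gt levels were 30.1, 32.9 and 28.3 CPM with DMSO and 32.6, 31.7 and 31.9 CPM with CMA. The WT DMSO libraries were the lowest and the WT CMA libraries the highest of the 12, while the STINGgt/gt groups overlapped between them. The rise in WT was 1.48-fold (log2 fold change 0.56, SE 0.058, adjusted p = 2.20e-07, edgeR), and the difference of the effects was 0.49 (adjusted p = 7.58e-05, edgeR).

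Neither gene for the ligands of these receptors passed the threshold in WT with all libraries. Fasl (ENSMUSG00000000817, chr1:161780691-161788495, minus strand), which encodes Fas ligand, was at 13.5, 13.1 and 13.6 CPM in WT DMSO and at 12.4, 11.4 and 13.7 CPM in WT CMA. The STINGgt/gt libraries held 12.5, 12.0 and 12.3 CPM with DMSO and 13.8, 12.6 and 12.6 CPM with CMA. The WT groups overlapped, and the log2 fold change of -0.10 (95% interval -0.25 to 0.05, adjusted p = 0.231, edgeR) was within the spread of replicates. It was -0.17 without WT CMA replicate 3 and -0.04 without WT CMA replicate 2, and it passed under none of the 22 alternatives (adjusted p from 0.0596 to 0.632 over them). The interval leaves room for a fall of that size but not for a rise like that of Fas. Without WT CMA replicate 3 the difference of the Fasl effects, -0.18 with all libraries (adjusted p = 0.128, edgeR), became -0.25 (adjusted p = 0.041, edgeR).

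Tnfsf10 (ENSMUSG00000039304, chr3:27317028-27342427, plus strand) encodes TRAIL, the ligand of the Tnfrsf10b product. It was at 12.4, 11.2 and 16.2 CPM in WT DMSO and at 14.3, 14.2 and 13.9 CPM in WT CMA. Levels in STINGgt/gt were 12.5, 13.1 and 13.6 CPM with DMSO and 12.2, 12.9 and 12.6 CPM with CMA. WT DMSO replicate 3 was the highest of all 12 libraries and placed the WT DMSO group on both sides of WT CMA. The log2 fold change in WT was 0.07 (95% interval -0.14 to 0.29, adjusted p = 0.521, edgeR) with that library and 0.27 (adjusted p = 0.0028, edgeR) without it, so whether Tnfsf10 passed depended on 1 library. The difference of its effects between the genotypes was 0.13 (adjusted p = 0.443, edgeR) with that library and 0.33 (adjusted p = 0.00617, edgeR) without it. With CMA, WT exceeded STINGgt/gt by 0.17 (adjusted p = 0.132, edgeR). That value passed without the same library (0.18, adjusted p = 0.0141, edgeR) and when the 2 groups alone were fitted (0.16, adjusted p = 0.0235, edgeR), and in none of the other 19 alternatives. Without WT DMSO replicate 2 the effect in WT was -0.04 and the difference of effects 0.01, and neither passed.

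**Figure D2:**
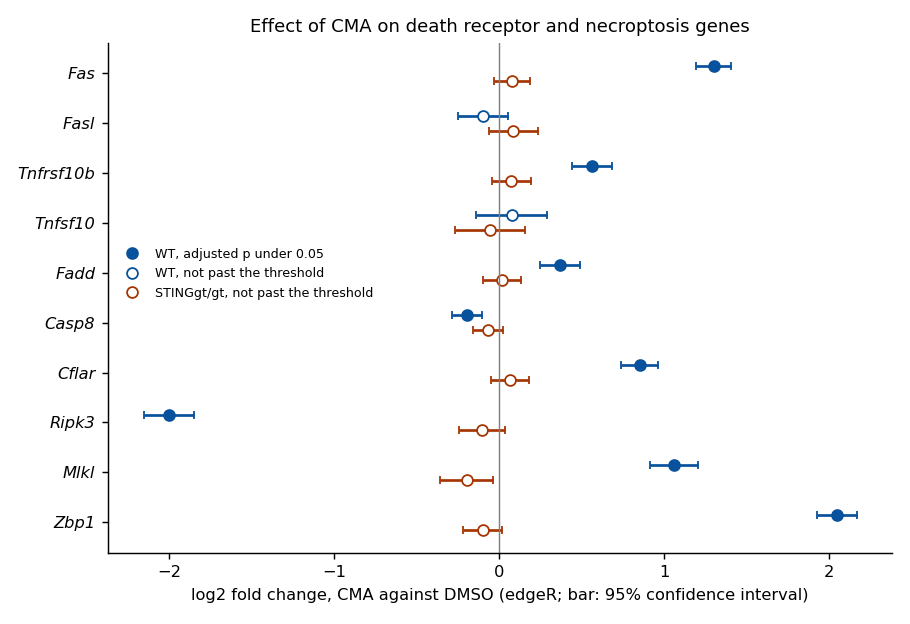
Log2 fold change of CMA against DMSO for each gene in WT (blue) and STINGgt/gt (brown) T cells, with 95% confidence intervals from edgeR. Filled points passed an adjusted p of 0.05, as 8 of the 10 did in WT and none did in STINGgt/gt, and the values span from -2.00 (Ripk3) to 2.05 (Zbp1) in WT.

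Of the proteins that assemble on the receptors, the adaptor gene rose slightly and the initiator caspase fell slightly. Fadd (ENSMUSG00000031077, chr7:144577318-144582463, minus strand) was at 14.6, 14.2 and 14.1 CPM in WT DMSO and 18.7, 17.5 and 19.1 CPM in WT CMA. The STINGgt/gt libraries were at 16.5, 16.1 and 17.1 CPM with DMSO and 16.6, 16.7 and 17.1 CPM with CMA, between the WT groups. The rise in WT was 1.29-fold (log2 fold change 0.37, SE 0.057, adjusted p = 2.43e-05, edgeR), and the effects differed by 0.35 (adjusted p = 0.00124, edgeR). The antisense transcript Faddos overlaps 6.12% of the exonic bases of Fadd and had a median count of 1, and the strand setting of the counting is not given in the sources used here.

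Casp8 (ENSMUSG00000026029, chr1:58795374-58847503, plus strand), which encodes caspase-8, was at 163.4, 173.1 and 174.6 CPM in WT DMSO and 151.0, 143.8 and 151.5 CPM in WT CMA. The corresponding STINGgt/gt levels were 156.2, 151.2 and 149.1 CPM and 144.1, 149.7 and 142.2 CPM. The WT groups did not overlap, but the fall was 1.145-fold (log2 fold change -0.20, SE 0.043, adjusted p = 6.41e-04, edgeR). In STINGgt/gt the log2 fold change was -0.07 (95% interval -0.16 to 0.02, adjusted p = 0.559, edgeR). The difference of the effects was -0.13 and missed the threshold (adjusted p = 0.0760, edgeR), whereas scaling to plain library sizes gave -0.155 and an adjusted p of 0.0278 (edgeR). Over all 21 alternatives this difference ran from -0.155 to -0.081, and it passed under library-size scaling alone.

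Cflar (ENSMUSG00000026031, chr1:58711508-58758884, plus strand) lies just upstream of Casp8 on the same strand and encodes cFLIP. It was at 201.7, 179.7 and 216.0 CPM in WT DMSO and 364.8, 360.6 and 353.7 CPM in WT CMA. The STINGgt/gt libraries held 148.1, 153.0 and 152.7 CPM with DMSO and 156.9, 158.9 and 159.2 CPM with CMA. No group overlapped another, in the order STINGgt/gt DMSO, STINGgt/gt CMA, WT DMSO and WT CMA from the lowest to the highest. The rise in WT was 1.81-fold (log2 fold change 0.85, SE 0.053, adjusted p = 4.12e-10, edgeR). In STINGgt/gt the log2 fold change was 0.07 (adjusted p = 0.656, edgeR), although its libraries did not overlap, and the effects differed by 0.79 (adjusted p = 1.78e-07, edgeR). The files count genes and not isoforms, so long and short forms of cFLIP were not separated.

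The neighbours Cflar and Casp8 therefore moved in opposite directions in WT T cells. The ratio of Cflar to Casp8 CPM within a library was 1.23, 1.04 and 1.24 in WT DMSO and 2.42, 2.51 and 2.33 in WT CMA. It was 0.948, 1.01 and 1.02 in STINGgt/gt DMSO and 1.09, 1.06 and 1.12 in STINGgt/gt CMA. Every WT CMA library lay above the other 9. Per kilobase of annotated exon the mean ratio was 0.267 in WT DMSO and 0.552 in WT CMA, so on this scale Casp8 kept the higher value. All annotated exons of Cflar together span 12669 bases, against 2893 for Casp8. The lengths of the transcripts present were not measured, so which RNA of the pair was the more abundant cannot be told.

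Of the necroptosis genes, Zbp1 rose and Ripk3 fell by more than any other of the 10 genes. Ripk3 (ENSMUSG00000022221, chr14:55784996-55788857, minus strand), which encodes the kinase that phosphorylates MLKL, was at 59.0, 68.4 and 54.6 CPM in WT DMSO and 14.3, 15.6 and 15.4 CPM in WT CMA. In STINGgt/gt it was at 47.6, 48.3 and 49.5 CPM with DMSO and 45.0, 45.3 and 44.9 CPM with CMA. The WT CMA libraries lay far below the other 9. The fall in WT was 4.01-fold (log2 fold change -2.00, SE 0.072, adjusted p = 3.43e-13, edgeR), and 1.90% of all genes tested had a lower log2 fold change. In STINGgt/gt the log2 fold change was -0.10 (95% interval -0.24 to 0.03, adjusted p = 0.534, edgeR), and the effects differed by -1.90 (adjusted p = 8.89e-11, edgeR). Ripk3 was the single gene of the 10 that fell at least 2-fold.

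Mlkl (ENSMUSG00000012519, chr8:111311797-111338177, minus strand), which encodes the substrate of RIPK3, moved the other way. It was at 14.7, 15.9 and 15.7 CPM in WT DMSO and 32.0, 32.1 and 32.3 CPM in WT CMA. In STINGgt/gt it was at 12.1, 11.3 and 11.0 CPM with DMSO and 11.4, 9.45 and 9.33 CPM with CMA, where the groups overlapped. The rise in WT was 2.08-fold (log2 fold change 1.06, SE 0.068, adjusted p = 6.49e-10, edgeR). In STINGgt/gt the log2 fold change was -0.20, which had an unadjusted p of 0.0186 and an adjusted p of 0.259 (edgeR), and the effects differed by 1.26 (adjusted p = 2.49e-08, edgeR).

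Zbp1 (ENSMUSG00000027514, chr2:173206612-173218923, minus strand), which encodes the nucleic acid sensor upstream of RIPK3 and is known as an interferon-induced gene, rose most. Its levels were 111.5, 129.9 and 116.7 CPM in WT DMSO and 494.9, 497.5 and 487.6 CPM in WT CMA. The STINGgt/gt libraries were at 122.4, 114.1 and 129.1 CPM with DMSO and 116.0, 113.9 and 110.8 CPM with CMA. The WT CMA libraries lay above the other 9, whose ranges overlapped. The rise in WT was 4.13-fold (log2 fold change 2.05, SE 0.057, adjusted p = 1.55e-14, edgeR), and 3.24% of all genes tested had a higher log2 fold change. The effects differed by 2.15 (adjusted p = 1.85e-12, edgeR).

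Set against Ripk3 within each library, both partners rose in WT T cells with CMA. The ratio of Mlkl to Ripk3 was 0.250, 0.232 and 0.287 in WT DMSO and 2.24, 2.06 and 2.09 in WT CMA, and between 0.208 and 0.255 in all 6 STINGgt/gt libraries. The ratio of Zbp1 to Ripk3 was 1.89, 1.90 and 2.14 in WT DMSO and 34.7, 31.9 and 31.6 in WT CMA, and between 2.36 and 2.61 in the STINGgt/gt libraries. Thus Ripk3 had a higher CPM than Mlkl in 9 libraries and a lower one in the 3 WT CMA libraries. The same held per kilobase of annotated exon, where the mean ratio of Mlkl to Ripk3 was 0.255 in WT DMSO and 2.12 in WT CMA.

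**Figure D3:**
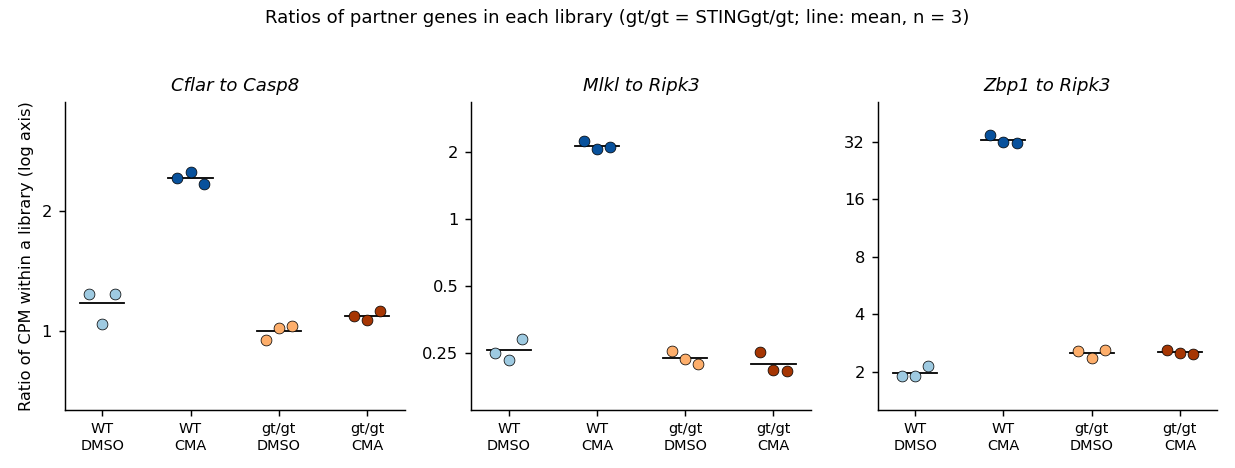
Ratio of the CPM of 2 genes within each library, on a log axis with a base of 2, for Cflar to Casp8, Mlkl to Ripk3 and Zbp1 to Ripk3. Points are libraries and lines are means of 3, and in each panel the 3 WT CMA points lie above the other 9, which reach at most 1.24, 0.287 and 2.61.

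The levels of different genes were compared per length, as CPM per kilobase of exon. In WT DMSO the order of the means was Casp8 (58.9), Zbp1 (33.8), Fas (28.8), Ripk3 (26.5), Cflar (15.7), Fasl (6.91), Mlkl (6.70), Tnfrsf10b (4.81), Fadd (3.66) and Tnfsf10 (2.52). In WT CMA it was Zbp1 (139.8), Fas (71.0), Casp8 (51.4), Cflar (28.4), Mlkl (13.96), Tnfrsf10b (7.09), Ripk3 (6.59), Fasl (6.46), Fadd (4.72) and Tnfsf10 (2.68). Zbp1 thus passed Casp8, and Ripk3 moved from the fourth to the seventh place. Neighbours in this order whose libraries overlapped were Fas and Ripk3 and Fasl and Mlkl in WT DMSO, and Tnfrsf10b, Ripk3 and Fasl in WT CMA. Both receptors stood above their own ligands in both WT groups.

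The genotypes were also compared under the same treatment, with the same libraries as above, so these values are no separate evidence. With DMSO, 6 of the 10 genes differed, 4 higher and 2 lower in WT, against 42.7% of all genes (22.9% and 19.8%), and for 7 the libraries did not overlap, against 47.9%. Mlkl (log2 difference 0.42, adjusted p = 2.18e-04), Cflar (0.40, 1.69e-05), Ripk3 (0.32, 7.50e-04) and Casp8 (0.16, adjusted p = 0.00553, edgeR for all 4) were higher in WT. Tnfrsf10b (-0.22, adjusted p = 0.00662) and Fadd (-0.21, adjusted p = 0.00646, edgeR) were lower in WT. None of these 6 differences reached 2-fold, and the sum of B-cell markers given above also differed between the genotypes with DMSO. With CMA, 7 of the 10 genes differed, 6 higher and 1 lower, against 73.5% of all genes (37% and 36.5%), and for 8 the libraries did not overlap, against 78.9%. Here the largest values were those of Zbp1 (2.12), Mlkl (1.68), Ripk3 (-1.58), Fas (1.27) and Cflar (1.18). The seventh call with CMA, Fadd (0.14, adjusted p = 0.0351, edgeR), was lost in 11 of 21 alternatives, with DESeq2 (0.15, adjusted p = 0.0563), library-size scaling (0.086, adjusted p = 0.181, edgeR) and no filter (0.13, adjusted p = 0.136, edgeR) among them. Leaving out any of 6 libraries (WT DMSO 2, WT CMA 1 and 3, STINGgt/gt DMSO 2, STINGgt/gt CMA 1 and 2) also ended it. For Ripk3 and Mlkl the difference with DMSO was smaller than that with CMA, and for Ripk3 it had the opposite sign.

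The other genes of the pathway were taken from 4 lists that hold none of the 10. Among 10 further death receptors, decoys and ligands with enough counts (Tnfsf12 had too few), 3 rose and 6 fell in WT T cells, against 33% and 37.4% of all genes, with a median log2 fold change of -0.32 (-0.04 for all genes). Tnfrsf25, which encodes death receptor DR3, rose from 14.5 ± 3.5 to 29.4 ± 0.83 CPM (SD, n = 3; log2 fold change 1.03), and Tnf rose by 0.41. The ligand gene Tnfsf15 rose most in this list, from 0.32 ± 0.03 to 9.87 ± 0.36 CPM (SD, n = 3, log2 fold change 4.91). Its mean over all libraries was 2.86 CPM, and its log2 fold change in STINGgt/gt was -0.04. Tnfrsf1b, the gene of the TNF receptor without a death domain, fell by 0.63, and the decoy TRAIL receptor gene Tnfrsf22 fell by 0.52. Reads that match Tnfrsf22 and its near-identical neighbour Tnfrsf23 equally well are not in the counts. Tnfrsf25 was the single receptor of this list that rose, and all 6 genes that fell encode receptors or decoys.

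Of 19 adaptors and ubiquitin regulators of the TNF receptor complexes, 12 rose and 1 fell in WT, with a median log2 fold change of 0.29. The 13 called are near the share of all genes (70.4%), with 33% of all genes higher and 37.4% lower. Tnfaip3, which encodes the ubiquitin-editing enzyme A20, rose from 159.0 ± 5.7 to 637.6 ± 3.9 CPM (SD, n = 3; log2 fold change 2.00). Birc2, which encodes the ubiquitin ligase cIAP1, rose by 0.98, Tab2, an adaptor of the kinase TAK1, by 0.76, and Rnf31, which encodes the catalytic subunit of the linear ubiquitin ligase complex, by 0.56. Ripk1, the kinase that links these complexes to RIPK3, did not pass the threshold (-0.09, adjusted p = 0.201, edgeR).

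Of 15 necroptosis inputs and modulators, 6 rose and 3 fell in WT, with a median log2 fold change of 0.01. Of all genes, 33% rose and 37.4% fell (70.4% together), and a difference of the 9 called from that share was not tested. With limma on the deposited log2 values 1 gene in place of 3 fell. Eif2ak2, which encodes the double-stranded RNA kinase PKR, rose from 53.6 ± 10.8 to 246.6 ± 2.2 CPM (SD, n = 3; log2 fold change 2.19). Adar, which encodes an RNA editing enzyme that limits ZBP1 activation, rose by 1.46, the interferon receptor gene Ifnar1 by 0.98, and Ppm1b, which encodes a phosphatase that acts on RIPK3, by 0.27.

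Of 9 caspases and substrates downstream of caspase-8, 3 rose and 3 fell in WT, near the share of all genes (70.4%), with a median log2 fold change of -0.03. The caspase gene Casp6 fell from 151.6 ± 5.1 to 63.7 ± 3.1 CPM (SD, n = 3; log2 fold change -1.25). Gsdmd, which encodes the pore-forming protein of pyroptosis, rose from 42.4 ± 2.2 to 79.9 ± 0.99 CPM (SD, n = 3; log2 fold change 0.91). Xiap, which encodes an inhibitor of caspases, rose by 0.62, and Bid, which encodes the substrate through which caspase-8 reaches the mitochondrial pathway, fell by 0.55. In STINGgt/gt T cells Casp6 was the single gene of the 4 lists that passed (log2 fold change -0.26, adjusted p = 0.0167, edgeR). Leaving out any of 4 STINGgt/gt libraries (DMSO replicates 1 and 2, CMA replicates 2 and 3) ended this call, with an adjusted p of up to 0.113 (edgeR).

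For reference, all 15 interferon-stimulated genes of a further list rose in WT, against 33% of all genes, with a median log2 fold change of 4.99, and Oasl1 (7.60), Rsad2 (7.37), Ifit3 (7.22) and Mx1 (6.80) led them. Zbp1 was below the median of that list. In STINGgt/gt 1 of the 15 passed, against 1.32% of all genes, namely Irf1 with 0.29 (adjusted p = 0.00383, edgeR). Of 12 p53 target genes with enough counts (Eda2r had too few), 5 rose and 5 fell in WT, against 33% and 37.4% of all genes, with a median of 0.02. Bbc3, the gene of the pro-apoptotic protein PUMA, rose by 1.77, Phlda3 by 1.22 and Trp53inp1 by 0.85, and Plk2 fell by 0.57. The p53 list therefore did not move in 1 direction, and none of its genes passed in STINGgt/gt (edgeR, and 1 of 12 with DESeq2). Of all genes, 1.32% passed there with edgeR and 2.37% with DESeq2.

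**Figure D4:**
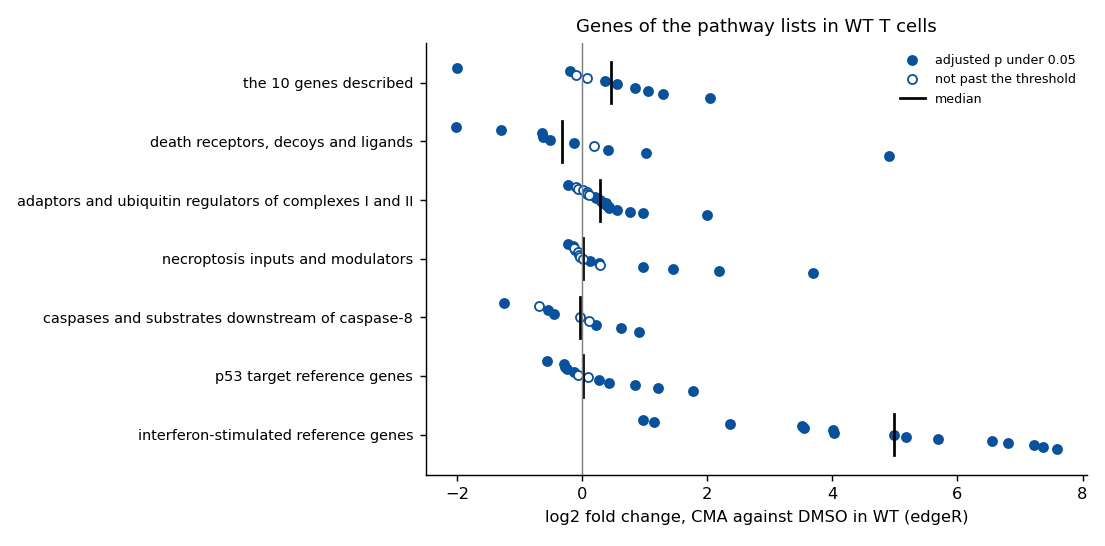
Log2 fold change of CMA against DMSO in WT for the 10 genes and for each gene of the 6 lists, with a bar at the median of each. Filled points passed an adjusted p of 0.05, and the medians run from -0.32 for the further receptors and ligands to 4.99 for the interferon-stimulated genes.

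The genes most like each of the 10 over the 12 libraries were found by the Pearson correlation of log2 CPM among 8764 genes with at least 10 CPM on average. These values are descriptions, since the 12 points share 4 groups and any gene that differs in WT CMA alone will correlate. Zbp1 was closest to Isg15 (0.999) and Lgals3bp (0.998), Mlkl to Optn (0.997) and Pglyrp2 (0.995), and Ripk3 to Impdh1 (0.997) and Twf2 (0.996). Fas was closest to Pon2 (0.998) and Ccne1 (0.997), and Cflar to Ppp1r16b and Arap2 (both 0.998). Each of these 5 had between 524 and 728 genes with a correlation above 0.95. Tnfrsf10b (Cenpm 0.966, Fam3c 0.962), Fadd (AW549877 0.974, Parp8 0.973) and Casp8 (Bloc1s6 0.979, Susd1 0.941) had 20, 25 and 1 such genes. The ligand genes Fasl (Ykt6 0.743, Mfn1 0.721) and Tnfsf10 (Ptbp3 0.945, Cdc27 0.905) had none.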

How the data were processed

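RNA sequencing libraries (TruSeq Stranded mRNA, Illumina) of T cells, 12 in 4 groups of 3, were analysed. The authors deposited a count of reads per gene for each library, and a table of log2 values for 11921 genes, which equals log2(count + 0.5) plus a constant per library. The submitters' processing notes name cutadapt 1.3, STAR 2.4.0f1, HTSeq 0.6.1, RSEM 1.2.16 and GRCm38, without roles. The strand setting and annotation release are not given in the sources used here. Symbols came from the deposited table, with 25762 more from a reference list, and HTSeq's tally lines were left out. Reads that did not map uniquely are not in the counts.

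Counts were tested with edgeR 4.0.16 (R 4.3.3), quasi-likelihood, TMM scaling and filterByExpr, for all 13811 genes that passed, with the 4 groups in 1 model and Benjamini-Hochberg adjustment. All 10 members passed the filter, with 334 to 17741 reads per library. Alternatives were library-size scaling, DESeq2 1.42.0, limma-voom and limma 3.58.1 on the deposited log2 values, other filters, thresholds and samples, a replicate block, and each of 12 libraries left out in turn. With 3 libraries against 3, an exact permutation test cannot give a p below 0.1, so none was used. Motifs were searched in RefSeq sequences of GRCm38.p6.

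The members and the 6 lists were chosen with earlier results of these data known. All members are named. Of the list downstream of caspase-8, 2 genes are not reported here and were left out of its counts. From each list at most 4 genes are named with values, those with the largest absolute change past the threshold in WT and a mean of at least 10 CPM, and for likeness the 2 highest correlations. Ripk1, Tnfsf15, and Irf1 as the single interferon-stimulated gene that passed in STINGgt/gt, were named outside this rule after their values were seen.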

Additional observations from a re-analysis of the deposited data

Results flagged for a closer look

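A test of the difference itself (edgeR, adjusted p between 3.14e-14 and 0.0497) separated the CMA effects of the genotypes for 7 of the 10 members and for all 24 list genes named by rule in the text. Of all genes tested, 58.8% passed in this comparison, so that 7 of 10 was near that share. Values are log2 fold changes in WT minus those in STINGgt/gt. Among the members these were 1.22 for Fas, 0.49 for Tnfrsf10b, 0.35 for Fadd, 0.79 for Cflar, -1.90 for Ripk3, 1.26 for Mlkl and 2.15 for Zbp1. Among receptors and ligands they were 1.25 for Tnfrsf25, -0.66 for Tnfrsf1b, -0.61 for Tnfrsf22 and 0.26 for Tnf. The value of Tnf lay at the threshold (adjusted p = 0.0497, edgeR) and missed it in 13 of 21 alternatives, namely library-size scaling (0.23, adjusted p = 0.0931, edgeR), both stricter thresholds, and each of the 12 libraries left out in turn except WT DMSO replicates 1 and 2. Over all 21 alternatives the value ran from 0.14 (without WT DMSO replicate 3) to 0.35 (without WT DMSO replicate 2). Among adaptors and ubiquitin regulators they were 1.93 for Tnfaip3, 1.01 for Birc2, 0.70 for Tab2 and 0.57 for Rnf31. Among necroptosis inputs they were 2.22 for Eif2ak2, 1.43 for Adar, 1.04 for Ifnar1 and 0.22 for Ppm1b. Downstream of caspase-8 they were -0.99 for Casp6, 0.81 for Gsdmd, 0.63 for Xiap and -0.69 for Bid. Among interferon-stimulated genes they were 7.74 for Oasl1, 7.12 for Rsad2, 7.14 for Ifit3 and 6.80 for Mx1. Among p53 targets they were 1.71 for Bbc3, 1.14 for Phlda3, 0.68 for Trp53inp1 and -0.50 for Plk2. All 24 list genes were chosen for a change in WT, so their values are not independent of that choice.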

How the results depend on the processing

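Of 1070 values of the 10 genes under 22 alternatives, 1032 kept their direction and their side of the threshold. None of the 7 that reversed passed the threshold in either form, namely Tnfsf10 in WT without WT DMSO replicate 2 (-0.044), Tnfsf10 between genotypes with DMSO (-0.00053 with limma on the deposited log2 values, -0.15 without WT DMSO replicate 3), Fadd in STINGgt/gt without STINGgt/gt DMSO replicate 2 (-0.0045), Casp8 between genotypes with CMA under library-size scaling (-0.017), and Zbp1 between genotypes with DMSO (0.010 without WT DMSO replicate 1, 0.0090 without STINGgt/gt DMSO replicate 3). The cause was not tested. Over all libraries left out in turn these values ran from -0.044 to 0.27 for Tnfsf10 in WT, -0.15 to 0.15 for Tnfsf10 between genotypes with DMSO, -0.0045 to 0.039 for Fadd and -0.099 to 0.010 for Zbp1.

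A minimum change of 2-fold left 3 members higher and 1 lower in WT, 3 more positive in the difference, and 0 higher and 0 lower between genotypes with DMSO. Of all genes, 17.0%, 16.0% and 7.28% passed that minimum in these comparisons, in either direction. In the lists in WT it left 2 of the receptor and ligand list lower, 1 adaptor higher and 0 lower, 3 necroptosis inputs higher and 0 lower, 0 of the caspase list higher and 1 lower, and 2 p53 targets higher and 0 lower. In STINGgt/gt it left 0 of the caspase list, as did an adjusted p of 0.01, and 0 of the interferon list. Library-size scaling gave 2 members, not 1, more negative in the difference. Limma on the deposited values gave 1 necroptosis input lower, and the cause was not tested. In STINGgt/gt, 2 of the receptor and ligand list passed when the 2 groups alone were fitted, and 1 p53 target passed with that fit, DESeq2 or no filter. Of all genes, 5.003% passed in STINGgt/gt with that fit, 2.368% with DESeq2 and 1.958% with no filter. With all 4 groups in 1 edgeR model the share was 1.318%.

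Leaving out each library in turn gave 6 to 7 members higher and 2 lower in WT, 6 to 7 and 1 to 2 in the difference, 4 and 2 between genotypes with DMSO, and 5 to 7 and 1 with CMA. Of all genes, 65.8% to 70.3%, 54.4% to 60.7%, 35.6% to 45.8% and 69.0% to 75.6% passed in these comparisons, in either direction. In the lists in WT, where the same 65.8% to 70.3% apply, leaving out libraries gave 3 to 4 of the receptor and ligand list higher and 5 to 6 lower. For adaptors it gave 12 to 13 higher and 1 to 2 lower, and for necroptosis inputs 5 to 7 higher and 2 to 4 lower. It gave 2 to 3 and 3 of the caspase list, 15 interferon genes higher, and 5 to 6 and 4 to 5 p53 targets. In STINGgt/gt it gave 0 to 1 of the caspase list, 1 interferon gene and 0 to 1 p53 targets, against 0.399% to 3.27% of all genes.

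The replicate numbers were not taken as pairs, since not every same-numbered pair correlated above 0.1 (0.002 to 0.132 in WT, 0.0585 to 0.0634 in STINGgt/gt). All 6 such pairs were positive, and 5 of 6 DMSO libraries correlated best with their own number, WT DMSO replicate 1 being the exception. This is a hint from the data and not from the design. Of the 12 other pairs, 9 were negative. Deviations were taken from group means, so a positive pair forces a negative value among the other pairs of that library. These 9 are therefore no separate evidence. The deposited sample names share their leading digit in 5 of the 6 same-numbered pairs, but no label says what that digit marks. With a replicate block, which applies within a genotype, the count of p53 targets in STINGgt/gt was 1 in place of 0, and no count of members moved by over 1.5 times. Of all genes, 2.63% passed in STINGgt/gt with this block.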
